A study of Mus musculus with 11 samples.

Results

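The genes described here are 7 mouse genes: 3 sestrins (*Sesn1*, *Sesn2* and *Sesn3*), the 2 REDD genes (*Ddit4* and *Ddit4l*) and 2 genes of the 4E-BP family (*Eif4ebp1* and *Eif4ebp2*). They were chosen by name, as stress genes whose products restrain the kinase complex mTORC1 or the translation that it promotes, with earlier results of these libraries known. All 7 were among the 18667 genes listed and among the 16169 genes that passed the filter on low values. RNA-Seq was performed on whole cochleae of 2-month-old mice, each library from an individual cochlea, with 5 *Atf6*+/+ libraries (labelled WT) and 6 *Atf6*-/- libraries (labelled ATF6KO). The labels give no treatment. The mice were littermates of both sexes on the C57BL/6J background, a strain with early age-related hearing loss, and the *Atf6*-/- allele is a germline premature stop that leaves all cells without the protein. The comparison asks how loss of ATF6, a membrane-bound sensor of stress in the endoplasmic reticulum (ER), alters cochlear transcripts.

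mTORC1 is activated at the lysosome when amino acids and growth factors are plentiful, and it promotes translation. Sestrins bind GATOR2 and so withhold the amino acid signal that reaches mTORC1 through the RAG GTPases. Sesn2 is also known as a leucine sensor. REDD1, the product of *Ddit4*, and its relative REDD2, the product of *Ddit4l*, act through the TSC complex, which switches off the mTORC1 activator RHEB. The 4E-BPs bind the cap-binding protein eIF4E and block initiation until mTORC1 phosphorylates them. *Sesn2*, *Ddit4* and *Eif4ebp1* are known targets of ATF4, the transcription factor of the integrated stress response, whereas *Sesn1* is best known as a p53 target and *Sesn3* as a FOXO target. The activity of the 4E-BPs is set mainly by phosphorylation, which RNA levels do not report.

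The proximal promoters of 4 of these genes are shown: *Sesn2* and *Ddit4* because they are known ATF4 targets, *Sesn3* and *Eif4ebp2* because they had the largest estimates with all libraries. RefSeq (GRCm38.p6) had promoters for 6 of the 7 genes, with 2 for *Sesn1*, and none was matched for *Eif4ebp1*. Each line gives the 250 bases before the transcription start, 5′ to 3′ on the gene's strand, and capitals mark a CCAAT box (letters CCAAT, read here on the opposite strand as ATTGG). *Sesn2* lies at chr4:132510457-132510706 on the minus strand, *Ddit4* at chr10:59951771-59952020 on the minus strand, *Sesn3* at chr9:14276051-14276300 on the plus strand and *Eif4ebp2* at chr10:61452670-61452919 on the minus strand.
Sesn2: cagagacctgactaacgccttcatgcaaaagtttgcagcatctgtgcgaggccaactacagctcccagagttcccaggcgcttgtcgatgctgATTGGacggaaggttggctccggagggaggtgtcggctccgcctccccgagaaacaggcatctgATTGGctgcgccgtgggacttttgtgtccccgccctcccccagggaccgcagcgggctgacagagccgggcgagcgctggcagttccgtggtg
Ddit4: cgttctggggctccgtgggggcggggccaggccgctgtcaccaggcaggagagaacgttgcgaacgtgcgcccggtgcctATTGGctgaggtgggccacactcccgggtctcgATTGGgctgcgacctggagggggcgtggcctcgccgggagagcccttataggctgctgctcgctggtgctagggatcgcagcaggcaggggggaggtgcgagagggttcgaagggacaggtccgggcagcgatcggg
Sesn3: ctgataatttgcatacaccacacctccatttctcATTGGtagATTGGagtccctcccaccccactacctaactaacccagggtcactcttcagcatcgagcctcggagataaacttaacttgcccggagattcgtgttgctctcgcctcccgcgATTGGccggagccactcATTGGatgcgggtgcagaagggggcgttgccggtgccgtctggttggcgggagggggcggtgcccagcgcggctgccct
Eif4ebp2: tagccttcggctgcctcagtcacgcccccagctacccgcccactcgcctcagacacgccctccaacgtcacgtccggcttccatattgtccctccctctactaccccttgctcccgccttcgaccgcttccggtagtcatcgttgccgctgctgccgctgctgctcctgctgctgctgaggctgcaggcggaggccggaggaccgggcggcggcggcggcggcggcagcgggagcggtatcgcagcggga

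*Sesn2* and *Ddit4* each held 2 CCAAT boxes and *Sesn3* held 4, while the *Eif4ebp2* window held none. In all, 5 of the 7 windows had at least 1 CCAAT box, compared with 33.8% of 32851 RefSeq promoters of the same length, or 4 of 6 genes compared with 37.5% of 27025. The SP1 GC box (GGGCGG) was found in 7 of 7 windows and in 32.7% of all promoters, or in 6 of 6 genes and 35.4% of all genes with a promoter. GC content ran from 59.6% to 71.2% over the 7 windows, above the median of 52.4% for all promoters. Searched on both strands, the C/EBP-ATF composite element that ATF4 binds (TGATGNAA, 3.45% of all promoters), the cAMP response element (TGACGTCA, 1.55%), the E-box of TFE factors (CACGTG, 6.02%), a FOXO element (GTAAACA, 3.17%), the ER stress response element (0.113%) and the TATA box (TATAAA, 12.4%) had no match in these windows. The ER stress response element contains a CCAAT box, so these counts overlap. A match is a run of letters and not evidence of binding.

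*Atf6* itself checked the labels: its RNA fell from 9.52 ± 1.11 FPKM (SD, n = 5) to 4.26 ± 0.285 (SD, n = 6), a log2 difference of -1.13 with groups that did not overlap (limma adjusted p = 5.17e-05). FPKM, the deposited unit, is scaled to transcript length and to the fragments of a library, so levels can be compared between genes. Fold changes are *Atf6*-/- over *Atf6*+/+, on the log2(FPKM + 0.1) scale. The study planned a nominal number of reads per library, but the counts behind each value, and so their counting error, are unknown. FPKM summed to between 462005 and 537926 per library. Markers of the cells in the tissue differed between libraries: hair cell markers averaged 1 FPKM or more over all 11 libraries (9 of 9 genes), with *Slc26a5*, the prestin gene of outer hair cells, as low as 0.24 in *Atf6*+/+ and 0.51 in *Atf6*-/-. They summed to 58.9 to 159 FPKM in *Atf6*+/+ and 93.1 to 181 in *Atf6*-/-. Neutrophil markers (8 of 8 genes) and erythroid markers (8 of 8) had lower mean levels in *Atf6*-/-, with erythroid sums of 4830 to 46400 FPKM in *Atf6*+/+ and 2870 to 9370 in *Atf6*-/-. Mean levels were also lower for B lineage markers (6 of 6, median log2 fold change -0.831), bone markers (8 of 8, -0.507) and neuron markers (6 of 6, -0.0639). They were higher for fibrocyte markers (5 of 5, 0.325), hair cell markers (8 of 9, 0.26) and brain markers (8 of 9, 0.38). Their part in the results was not tested beyond a bone marrow score (the mean log2 level of neutrophil, B lineage and erythroid markers), entered in the model as an alternative. In whole tissue, fewer cells of a type and less RNA per cell cannot be told apart.

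None of the 7 genes differed between the genotypes after adjustment over all genes (limma, Benjamini-Hochberg), a call made for 0.068% of the 16169 genes tested (0.0557% higher and 0.0124% lower in *Atf6*-/-). At an unadjusted limma p of at most 0.05, 1 of 7 was called, *Eif4ebp2*, against a background of 9.85% of all genes in either direction, 4.48% higher and 5.37% lower in *Atf6*-/-. The exact permutation test of each gene called 0 of 7 at p under 0.05, beside 9.22% of all genes. For no gene of the 7 were the groups separate, as they were for 1.25% of all genes (0.643% with *Atf6*-/- higher). The median log2 fold change of the 7 was 0.107, beside -0.0134 over all genes. The estimates were positive for the 3 sestrins and *Eif4ebp2* and negative for both REDD genes and *Eif4ebp1*.

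**Figure D1:**
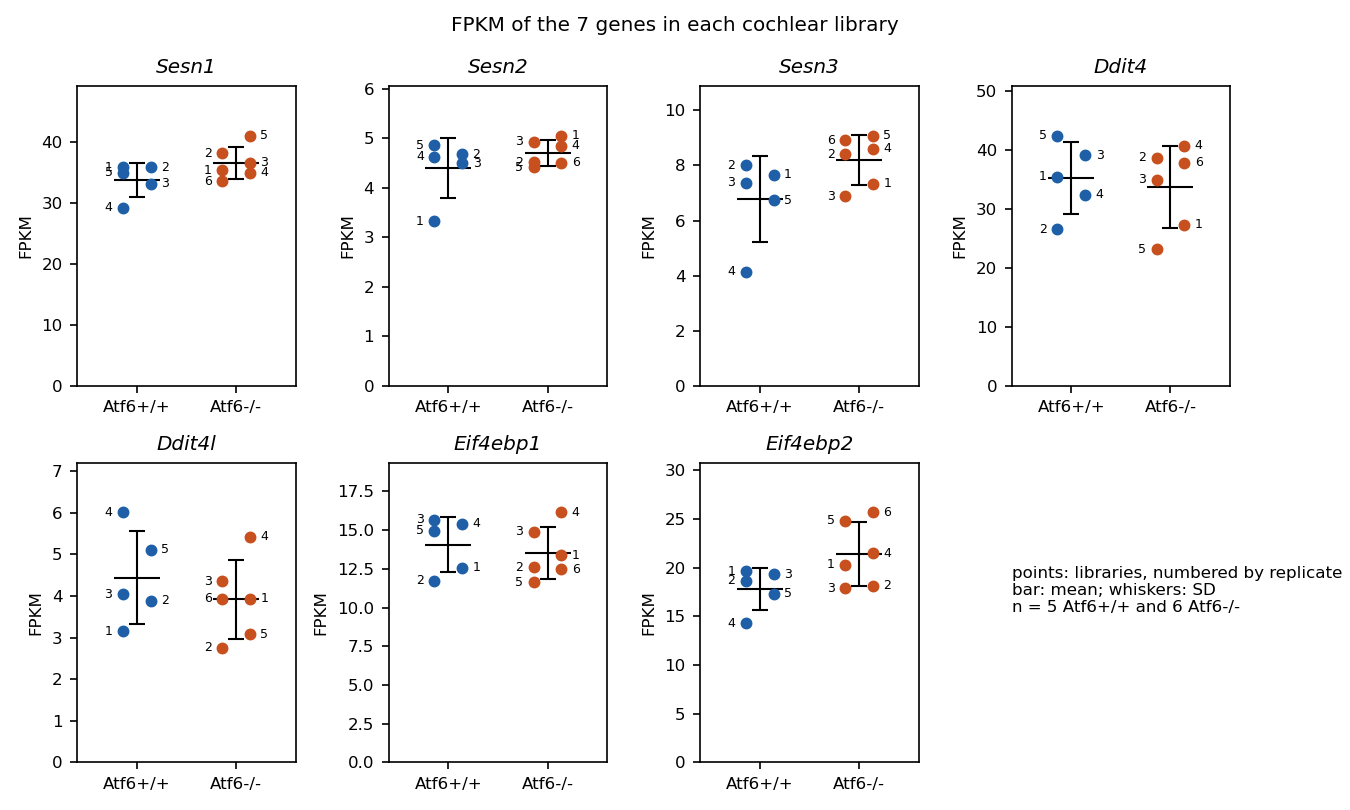
FPKM of each of the 7 genes (vertical axis, from 0) in the 5 *Atf6*+/+ libraries (blue) and 6 *Atf6*-/- libraries (orange), numbered by replicate, with the mean (bar) and SD (whiskers). The groups overlapped for every gene, and *Atf6*+/+ replicate 4 was the lowest library for *Sesn1* (29.24), *Sesn3* (4.15) and *Eif4ebp2* (14.26).

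Among the sestrins, *Sesn1* was the most abundant and *Sesn2* the least. *Sesn1* measured 35.96, 35.91, 33.24, 29.24 and 35.04 FPKM in *Atf6*+/+ replicates 1 to 5, and from 33.6 to 41.07 with a median of 36.1 in *Atf6*-/-. Of the 6 *Atf6*-/- libraries, 3 lay above all *Atf6*+/+ libraries, and replicate 4 of *Atf6*+/+ lay below all others. The log2 fold change was 0.11 (SE 0.0659, limma adjusted p = 0.567), and its 95% interval ran from -0.0284 to 0.26. Without *Atf6*+/+ replicate 4 it was 0.0629. Once the marrow score was added it was 0.0476.

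*Sesn2* was measured at 3.33, 4.68, 4.5, 4.63 and 4.86 FPKM in *Atf6*+/+ and from 4.42 to 5.05 with a median of 4.68 in *Atf6*-/-. Apart from *Atf6*+/+ replicate 1, all libraries of both genotypes fell in the same narrow range. The log2 fold change was 0.11 (SE 0.096, limma adjusted p = 0.709), and the interval of the fold, 0.932 to 1.24, held no change as well as a rise of up to 1.24-fold. Without *Atf6*+/+ replicate 1 the estimate was 0.0126 on the log2 scale.

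*Sesn3* had the largest estimate of the 7 genes with all libraries. It measured 7.67, 8.01, 7.37, 4.15 and 6.73 FPKM in *Atf6*+/+, and from 6.88 to 9.07 with a median of 8.5 in *Atf6*-/-. Of the 6 *Atf6*-/- libraries, 4 exceeded every *Atf6*+/+ library, and the other 2 lay within the *Atf6*+/+ range. The log2 fold change was 0.30 (SE 0.152), a fold of 1.23 with a 95% interval of 0.978 to 1.55. It did not pass either test (limma adjusted p = 0.524, exact permutation p = 0.0671). With 1 library left out it ran from 0.13 (without *Atf6*+/+ replicate 4) to 0.37 (without *Atf6*+/+ replicate 2). In the latter fit the unadjusted limma p was 0.0408 and the exact permutation p 0.0381. Without *Atf6*-/- replicate 3 (0.35) they were 0.0497 and 0.0317. Without *Atf6*+/+ replicate 4 the estimate lay below that of *Eif4ebp2* (0.18), as it also did without *Atf6*-/- replicate 2 (0.29 against 0.30).

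The ratios between sestrins within a library, which do not depend on scaling between libraries, did not differ between genotypes beyond their spread. *Sesn3*/*Sesn1* was 0.198 (geometric mean, n = 5) in *Atf6*+/+ and 0.225 (n = 6) in *Atf6*-/- (exact permutation p = 0.221). *Sesn2*/*Sesn1* was 0.132 and 0.131 (exact permutation p = 0.97). *Sesn3*/*Sesn2* was 1.51 and 1.72 (exact permutation p = 0.442). Its log2 difference of 0.19 was 0.005 without *Atf6*+/+ replicate 4 and 0.34 without replicate 1, and that of *Sesn3*/*Sesn1*, 0.18, was 0.0705 without replicate 4. Over the 6 ratios within these families, 0 passed Benjamini-Hochberg adjustment, and the smallest adjusted p was 0.442.

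*Ddit4*, which encodes REDD1, was the most abundant of the 7 in *Atf6*+/+. Its FPKM values were 35.5, 26.62, 39.19, 32.47 and 42.42 in *Atf6*+/+ and 23.21 to 40.76 with a median of 36.4 in *Atf6*-/-. No *Atf6*-/- library exceeded the highest *Atf6*+/+ library, and the lowest of all 11 was *Atf6*-/- replicate 5. The log2 fold change was -0.07 (SE 0.157, limma adjusted p = 0.901), with a fold of 0.953 and a 95% interval of 0.752 to 1.21. The sign of this estimate was not stable: it was 0.0013 without *Atf6*+/+ replicate 5, 0.0325 without *Atf6*-/- replicate 5 and 0.19 once the marrow score was added.

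*Ddit4l*, which encodes REDD2, had 3.16, 3.89, 4.04, 6.01 and 5.11 FPKM in *Atf6*+/+ and 2.76 to 5.43 with a median of 3.94 in *Atf6*-/-. Its highest value was in *Atf6*+/+ replicate 4, the library in which *Sesn1*, *Sesn3* and *Eif4ebp2* were lowest. The log2 fold change was -0.18 (SE 0.188, limma adjusted p = 0.763), with a 95% interval of -0.58 to 0.23. It was -0.06 without *Atf6*+/+ replicate 4, -0.29 without *Atf6*+/+ replicate 1 and -0.0713 once the marrow score was added. The *Ddit4l*/*Ddit4* ratio was 0.127 in *Atf6*+/+ and 0.118 in *Atf6*-/- (exact permutation p = 0.671).

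*Eif4ebp1*, which encodes 4E-BP1, was at 12.58, 11.74, 15.66, 15.42 and 14.96 FPKM in *Atf6*+/+ and at 11.63 to 16.14 with a median of 13.0 in *Atf6*-/-. Only 1 of the 6 *Atf6*-/- libraries lay above the *Atf6*+/+ median. Its log2 fold change was -0.0573 (SE 0.1, limma adjusted p = 0.87), with a fold of 0.961 and a 95% interval of 0.826 to 1.12. With 1 library left out it ran from -0.12 (without *Atf6*+/+ replicate 2) to -0.0161 (without *Atf6*-/- replicate 5). Its sign turned once the marrow score was added (0.0639) and after the trend with length and GC content had been removed (0.0173).

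*Eif4ebp2*, which encodes 4E-BP2, had the smallest limma p of the 7 genes, while the smallest exact p was that of *Sesn3*. It measured 19.6, 18.63, 19.29, 14.26 and 17.31 FPKM in *Atf6*+/+, and from 17.89 to 25.65 with a median of 20.9 in *Atf6*-/-. In *Atf6*-/-, 4 of 6 libraries lay above every *Atf6*+/+ library, with replicates 5 and 6 the highest. The log2 fold change was 0.26 (SE 0.111, unadjusted limma p = 0.0397, adjusted p = 0.491), a fold of 1.19 with a 95% interval of 1.01 to 1.41, and the exact permutation p was 0.0758. The unadjusted call was lost without *Atf6*+/+ replicate 4 (log2 fold change 0.18) or replicate 5 (0.25). It was also lost without *Atf6*-/- replicate 4 (0.25), 5 (0.21) or 6 (0.20). Once the marrow score was added the estimate was 0.31, and the unadjusted call was lost there too. Adjusted limma p-values for *Eif4ebp2* with 1 library left out ran from 0.399 to 0.698.

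**Figure D2:**
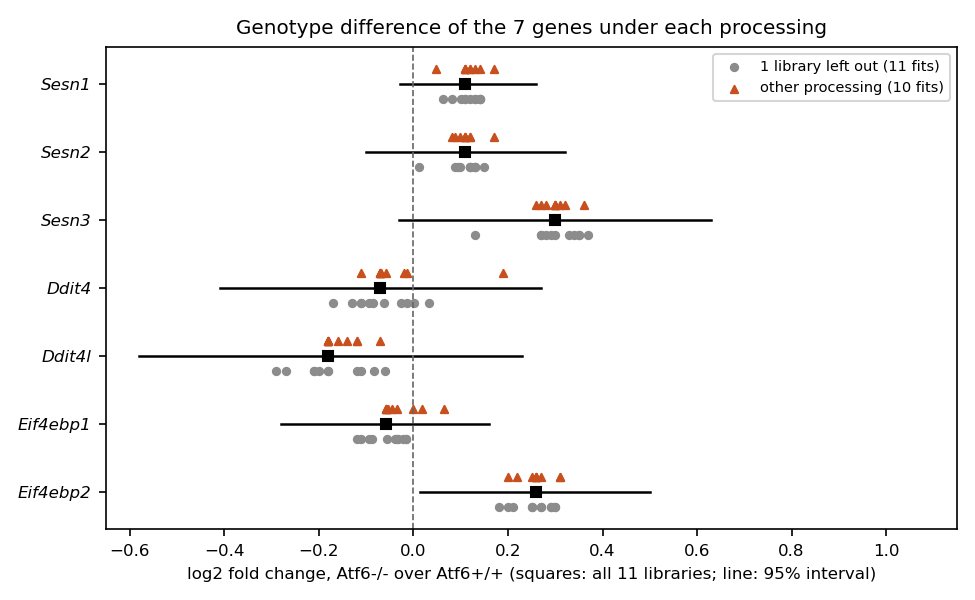
Log2 fold change of each gene (horizontal axis, *Atf6*-/- over *Atf6*+/+) from limma with all 11 libraries (squares, with 95% intervals), with 1 library left out (grey, 11 fits) and under other processing (orange triangles). The 4 positive estimates stayed positive in every fit shown, whereas *Ddit4* (-0.07 with all libraries) and *Eif4ebp1* (-0.0573) crossed 0.

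The 4E-BP pair was set against itself and against its target. *Eif4ebp2*/*Eif4ebp1* had a geometric mean of 1.26 in *Atf6*+/+, with a range of 0.925 to 1.58, and of 1.57 in *Atf6*-/-, with a range of 1.2 to 2.12. The log2 difference was 0.31 (exact permutation p = 0.156), and it was 0.20 without *Atf6*+/+ replicate 4. *Eif4e*, the cap-binding target of both proteins, was measured at 44.5 ± 2.17 FPKM (SD, n = 5) and 44.8 ± 1.85 (SD, n = 6), a difference of 0.0097 on the log2 scale (limma adjusted p = 0.957). The sum of both 4E-BPs per *Eif4e* was 0.717 in *Atf6*+/+ and 0.778 in *Atf6*-/-, and it was below 1 in all 11 libraries. The difference was within the spread (log2 difference 0.12, exact permutation p = 0.18). *Eif4ebp3*, the remaining gene of the family, was at 6.57 and 5.78 FPKM (log2 fold change -0.19, limma adjusted p = 0.573).

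In order of level, *Ddit4* (35.2 FPKM) and *Sesn1* (33.9) came first in *Atf6*+/+, then *Eif4ebp2* (17.8), *Eif4ebp1* (14.1), *Sesn3* (6.79), *Ddit4l* (4.44) and *Sesn2* (4.40). Neighbours in this order overlapped between libraries except *Sesn1* and *Eif4ebp2*, with a ratio of means of 1.9, and *Eif4ebp1* and *Sesn3*, with a ratio of 2.07. In *Atf6*-/- the order was *Sesn1* (36.7), *Ddit4* (33.8), *Eif4ebp2* (21.4), *Eif4ebp1* (13.5), *Sesn3* (8.2), *Sesn2* (4.71) and *Ddit4l* (3.92). There *Ddit4* overlapped both *Sesn1* and *Eif4ebp2*, and *Sesn2* overlapped *Ddit4l*, while *Eif4ebp2*, *Eif4ebp1*, *Sesn3* and *Sesn2* were separate from each other. Both exchanges of place between the genotypes, at the top and at the bottom of the order, were between genes that overlapped.

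The genes of the machinery on which these proteins act were compared in the same way. Of 63 genes in 9 lists covering mTORC1, its amino acid and energy inputs, eIF4F and the S6 kinase branch, 31 had positive and 32 negative estimates, with a median log2 fold change of -0.00487. None passed adjustment with limma, and 4 genes (6.35%, against the background of 9.85%) had an unadjusted limma p of at most 0.05. *Castor2*, of the arginine sensor family, was the 1 higher gene (log2 fold change 0.22, limma adjusted p = 0.489). The 3 lower genes were *Rheb* (-0.14, limma adjusted p = 0.47) and the RAG GTPase genes *Rragc* (-0.11, limma adjusted p = 0.407) and *Rragb* (-0.16, limma adjusted p = 0.505).

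*Mtor* itself was at 15.3 ± 0.816 FPKM (SD, n = 5) and 15.8 ± 0.682 (SD, n = 6), with a log2 fold change of 0.0475 (95% interval -0.0605 to 0.16). Its partner *Rptor* had a log2 fold change of 0.018. The TSC genes *Tsc1* and *Tsc2*, through which REDD1 acts, had 0.0934 and 0.0424. In GATOR2, the sestrins' binding partner, the smallest p belonged to *Wdr59* (log2 fold change 0.10, limma adjusted p = 0.555) and *Mios* (-0.063, limma adjusted p = 0.78). In GATOR1 and KICSTOR, *Kptn* was at -0.086 (limma adjusted p = 0.706).

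Downstream, *Rps6kb1*, the S6 kinase gene, was at 11.3 FPKM in both groups (log2 fold change 0.008). In the eIF4F list the leading genes were the helicase gene *Eif4a2* (-0.10, limma adjusted p = 0.535) and the scaffold gene *Eif4g1* (0.11, limma adjusted p = 0.547). AMPK genes were led by *Prkag2* (-0.10, limma adjusted p = 0.619) and *Prkaa1* (-0.077, limma adjusted p = 0.702). Of 12 lysosomal genes driven by TFEB, a transcription factor that mTORC1 holds in the cytoplasm, 3 were higher and 9 lower. Only the proton pump gene *Atp6v1h* had an unadjusted limma p of at most 0.05 (-0.15, limma adjusted p = 0.362), which is 8.33% of the list beside 9.85% of all genes, and *Gla* followed (-0.12, limma adjusted p = 0.539).

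The lists of the transcription factors known to drive the 7 genes differed more between each other. Over all genes, 7324 estimates were positive and 8845 negative. The ATF4 list held 19 targets other than the 7. It did not include *Ddit3* (-0.22) or *Atf3* (-0.26), which were counted in other lists. Of these 19 targets, 19 had positive estimates (0.0001 to 3.06), with a median log2 fold change of 0.378. An unadjusted limma p of at most 0.05 was reached by 15 (78.9%, against 9.85% of all genes). For 9 the groups did not overlap (against 1.25% of all genes), and 3 rose after adjustment (against 0.068%). The 3 were *Atf5* (0.87, limma adjusted p = 0.000441), a transcription factor, *Fgf21* (3.06, limma adjusted p = 0.00923), a secreted stress hormone, and *Shmt2* (0.38, limma adjusted p = 0.0482), a mitochondrial serine enzyme. For *Atf4* itself the value was 0.19 (limma adjusted p = 0.495), *Ddit3*, which encodes CHOP, -0.22 (limma adjusted p = 0.505) and *Trp53* -0.0446 (limma adjusted p = 0.831). The ATF4 targets were chosen with earlier results of these libraries known, and their count is not independent evidence.

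The 3 known ATF4 targets among the 7 genes had values of 0.11 (*Sesn2*), -0.07 (*Ddit4*) and -0.0573 (*Eif4ebp1*), beside 0.47 for *Asns*, the asparagine synthetase gene often read as an ATF4 marker. *Asns* measured 53.6 to 72.1 FPKM in *Atf6*+/+ and 77.0 to 97.2 in *Atf6*-/-, without overlap (limma adjusted p = 0.0909). The ratio of each of the 3 genes to *Asns* within a library was added after these values had been seen. *Sesn2*/*Asns* had a geometric mean of 0.0725 in *Atf6*+/+ and 0.0564 in *Atf6*-/-, a log2 difference of -0.36. *Eif4ebp1*/*Asns* was 0.229 and 0.159, a log2 difference of -0.53. *Ddit4*/*Asns* was 0.567 and 0.39, a log2 difference of -0.54. Since *Asns* was picked for its own difference, these ratios are a description and no test was made. With 1 library left out the difference ran from -0.42 to -0.27 for *Sesn2*, from -0.61 to -0.45 for *Eif4ebp1* and from -0.65 to -0.41 for *Ddit4*, and for each ratio the groups overlapped.

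**Figure D3:**
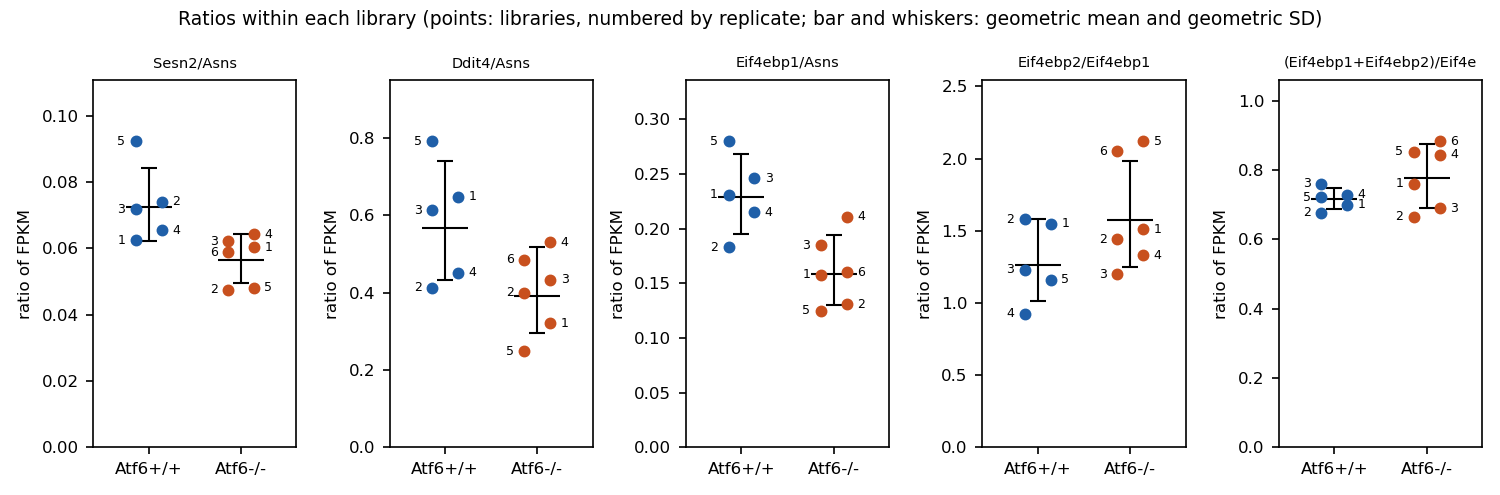
Ratios of FPKM within each library (vertical axes, from 0) for *Sesn2*, *Ddit4* and *Eif4ebp1* to *Asns*, for *Eif4ebp2* to *Eif4ebp1* and for both 4E-BPs to *Eif4e*, with points numbered by replicate and the geometric mean and geometric SD. The ratios to *Asns* were lower on average in *Atf6*-/- (0.0725 against 0.0564 for *Sesn2*), with *Atf6*+/+ replicate 5 the highest in all 3, and the groups overlapped.

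Of 10 p53 targets other than *Sesn1*, 5 were higher and 5 lower, and only *Cdkn1a*, a cell cycle inhibitor gene, had an unadjusted limma p of at most 0.05 (0.21, limma adjusted p = 0.362), a count of 1 in 10 beside 9.85% of all genes. *Trp53inp1* followed (0.32, limma adjusted p = 0.536). Of 10 FOXO targets other than *Sesn3*, 9 were higher and 1 lower, with a median of 0.108, and *Bcl6* alone had an unadjusted limma p of at most 0.05 (0.33, limma adjusted p = 0.345), with groups that did not overlap. This count of 1 in 10 also stands beside 9.85% of all genes, of which 1.25% did not overlap. *Pdk4* followed (0.20, limma adjusted p = 0.505). *Foxo3*, which encodes one of the factors, was at 0.27 (limma adjusted p = 0.407). Of the 7 listed regulators of these genes, 2 had an unadjusted limma p of at most 0.05 (28.6%, beside 9.85% of all genes). They were *Foxo3* and *Atf4*.

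*Ddit4* is also a target of the glucocorticoid receptor and of hypoxia. All 8 glucocorticoid targets had positive estimates, with a median of 0.266. Those at an unadjusted limma p of at most 0.05, 2 of 8 or 25.0% beside 9.85% of all genes, were *Mt2*, a metallothionein gene (0.48, limma adjusted p = 0.391), and *Fkbp5* (0.67, limma adjusted p = 0.452). Of 13 hypoxia targets, 6 were higher and 7 lower, and 3 (23.1%, beside 9.85% of all genes) had an unadjusted limma p of at most 0.05. The glucose transporter gene *Slc2a1* (0.30, limma adjusted p = 0.368), whose groups did not overlap, and *Vegfa* (0.18, limma adjusted p = 0.404) were higher at that level, and the mitophagy gene *Bnip3* was lower (log2 fold change -0.088). Of 9 immediate early genes, whose RNA responds within minutes to stimulation or handling, 1 was higher and 8 were lower with a median of -0.068, and 0 had an unadjusted limma p of at most 0.05. The smallest p belonged to *Fosb* (0.50, limma adjusted p = 0.505) and *Atf3* (-0.26, limma adjusted p = 0.591).

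**Figure D4:**
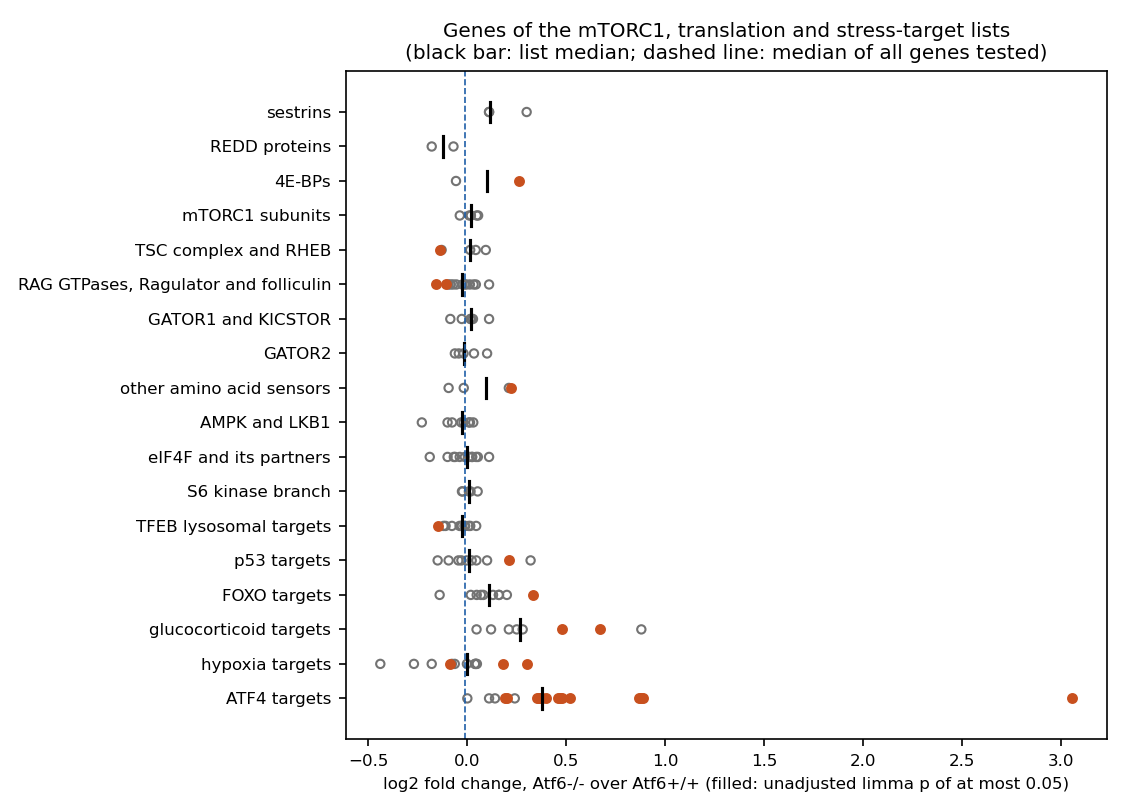
Log2 fold change (horizontal axis, *Atf6*-/- over *Atf6*+/+) of each gene in the lists named at the left, filled where the unadjusted limma p was at most 0.05, with list medians as black bars and the median of all genes (-0.0134) as a dashed line. The mTORC1 and translation lists lay near 0, while the 19 ATF4 targets lay at or above 0 with a median of 0.378.

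Across the 11 libraries, *Sesn3* and *Eif4ebp2* varied together. Their log2 levels had Pearson's r = 0.84 (permutation p = 0.00034, adjusted p = 0.00714 over 21 pairs) and Spearman's rho = 0.82 (permutation p = 0.00362, adjusted p = 0.0479). Without the libraries farthest from the *Sesn3* median, *Atf6*+/+ replicate 4 and *Atf6*-/- replicate 5, r was 0.71. It was 0.78 for deviations from the genotype means, and 0.81 after trends with GC content and transcript length had been removed. This was 1 of 21 pairs of the 7 genes to pass by Pearson's r. The share of all gene pairs with such an r was not computed, so the relation cannot be called particular to this pair. Both genes had higher r with genes outside the 7, up to 0.958 for *Sesn3* and 0.98 for *Eif4ebp2*.

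*Ddit4l* and *Eif4ebp1* came next, with r = 0.78 (permutation p = 0.00564, adjusted p = 0.0592), rho = 0.80 (permutation p = 0.00456, adjusted p = 0.0479) and r = 0.79 without *Atf6*+/+ replicate 4 and *Atf6*-/- replicate 2. *Sesn1* and *Ddit4l* ran in opposite directions, with r = -0.73 (permutation p = 0.00947, adjusted p = 0.0663) and rho = -0.73 (permutation p = 0.0126, adjusted p = 0.0883). Without the 2 libraries farthest from the *Sesn1* median, their r was -0.49. *Sesn1* and *Sesn3* (r = 0.75, permutation p = 0.0186, adjusted p = 0.0978; rho = 0.36, permutation p = 0.273) rested on *Atf6*+/+ replicate 4 and *Atf6*-/- replicate 5: without them r was -0.05. *Sesn2* and *Ddit4*, both ATF4 targets, had r = -0.04 (permutation p = 0.927) and rho = 0.06 (permutation p = 0.859). Without the 2 libraries farthest from the *Sesn2* median, replicate 1 of each genotype, r was 0.39. The libraries shared in these pairs also differed in cell markers: *Atf6*+/+ replicate 4 had the lowest sums of hair cell markers (58.9 FPKM) and stria vascularis markers (213), and the highest of adipocyte markers (18.2, where the *Atf6*-/- libraries had 3.81 to 5.66). Over the 11 libraries, the mean log2 level of adipocyte markers had Pearson's r of -0.87 with *Sesn3* and -0.65 with *Eif4ebp2*, stria vascularis markers 0.68 and 0.65, and fibrocyte markers 0.58 and 0.72. Only 2 of the 5 adipocyte markers averaged 1 FPKM or more, so their mean log2 level depended in part on values near the pseudocount. Macrophage markers had r of -0.63 with *Sesn3* and -0.69 with *Eif4ebp2*, glucocorticoid targets 0.74 and 0.61 and FOXO targets 0.61 and 0.61, and neuron markers had -0.71 with *Sesn3*. With *Ddit4l* and *Eif4ebp1*, r was 0.82 and 0.73 for bone markers, 0.69 and 0.74 for immediate early genes and 0.71 and 0.65 for macrophage markers, and adipocyte markers had 0.71 with *Ddit4l*. *Sesn1* had r of 0.84 with glucocorticoid targets, -0.83 with adipocyte markers, -0.70 with neuron markers and -0.67 with macrophage markers. These values, some as large as those of the gene pairs, are a description, and the part of these lists in the relations was not tested.

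Among 13611 genes averaging 1 FPKM or more, the pattern most like that of each gene was sought by Pearson's r over the 11 libraries. Because they were picked as the highest of so many, these values are a description. *Eif4ebp2* was most like *Arid1b* (r = 0.98), *Msh6* (0.977) and *Sp1* (0.972), and *Sesn3* like *Dnajb14* (0.958) and *Rnf2* (0.948). *Eif4ebp1* was most like *Cebpb* (0.973), *Rpsa* (0.954) and *Cyren* (0.929). *Sesn1* was most like *Xpot* (0.947), *Klf9* (0.938) and *Abhd13* (0.92), *Sesn2* like *Bpifa1* (0.877), *Rrad* (0.838) and *Sema3g* (0.827), *Ddit4* like *Farp2* (0.937), *Rhno1* (0.922) and *Pigbos1* (0.866), and *Ddit4l* like *Atg16l1* (0.953), *Zbtb48* (0.937) and *Mepe* (0.929). The best r of *Sesn2* was the lowest of the 7, and *Sema3g* had a rank correlation of 0.264.

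The sign of the estimates followed transcript length in the 7 genes. The longest protein-coding transcripts (GENCODE M21) of *Ddit4* (1755 bases), *Eif4ebp1* (1997) and *Ddit4l* (2722) were the shortest, and their estimates were negative. *Sesn2* (3475), *Sesn1* (3809), *Eif4ebp2* (5784) and *Sesn3* (9125) were longer, and theirs were positive. Over all genes with a matched length (15741, or 97.4%), the median log2 fold change moved from -0.075 in the shortest of 5 equal bins of length to 0.0299 in the longest. The trend within a library was lowest in *Atf6*+/+ replicates 4 (-0.0838 log2 units per doubling of length) and 5 (-0.081). It was highest in *Atf6*-/- replicates 5 (0.107) and 6 (0.0719). The genotypes overlapped, with 0.018 in *Atf6*+/+ replicate 2 and -0.0528 in *Atf6*-/- replicate 3. With the trend of length and GC content removed, *Sesn3* had 0.28 (limma adjusted p = 0.421) and *Eif4ebp2* 0.22 (limma adjusted p = 0.443), both at an unadjusted limma p of at most 0.05. *Ddit4* had -0.0203 and *Eif4ebp1* 0.0173.

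**Figure D5:**
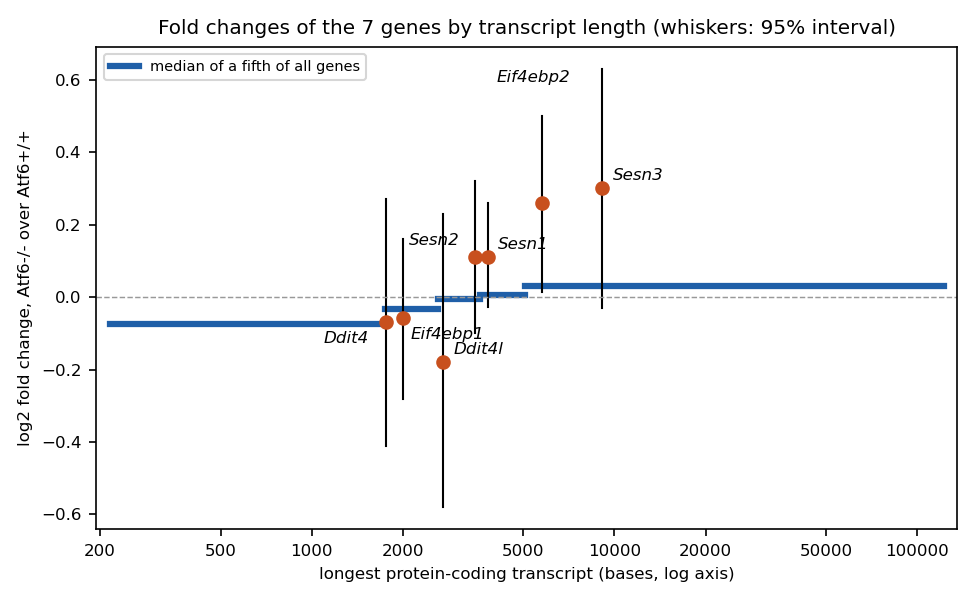
Log2 fold change of the 7 genes (vertical axis, *Atf6*-/- over *Atf6*+/+, with 95% intervals) against the length of the longest protein-coding transcript in bases (log axis), with the median of each of 5 equal bins of all genes in blue. The 3 genes up to 2722 bases lay below 0 and the 4 from 3475 bases lay above, and the medians of the bins ran from -0.075 to 0.0299.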

How the data were processed

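Total RNA (RNeasy) was used for stranded mRNA sequencing on DNBSEQ. Per the labels, the authors aligned reads to GRCm39 with HISAT2 2.0.4, estimated expression with RSEM 1.2.12 (the study's methods give another RSEM version) and tested with DESeq2 1.4.5. The deposited values are FPKM per gene, 1 column per library. They are not scaled to a common sum. The study gives a nominal depth, and the reads counted in each library were not used here.

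Genes averaging 0.1 FPKM or more over all libraries were tested. A pseudocount of 0.1 was added before log2 transformation, and genotype was fitted as the only term with limma 3.58.1 (R 4.3.3, mean-variance trend, two-sided, Benjamini-Hochberg adjustment over 16169 genes). Single values and ratios were compared by exact two-sided permutation of the library labels, whose smallest p is 0.00216. Correlations used 100000 permutations. Nothing in the labels states that libraries of a group came from separate animals, so p-values measure the spread between libraries. The 7 genes and the lists were chosen with earlier results of these data known. Besides the 7 genes and *Atf6*, the text names a fixed set of pathway genes (*Mtor*, *Rptor*, *Tsc1*, *Tsc2*, *Eif4e*, *Eif4ebp3*, *Rps6kb1*, *Atf4*, *Ddit3* and *Trp53*), the 2 genes with the smallest limma p in each list, list genes with an adjusted p under 0.05, and the 3 genes most like each of the 7; *Asns* and *Bnip3* were named after their values were seen. Some genes that this rule picks are not reported here. *Kics2*, *Ighm* and *Lep*, written in the lists, were not analysed here. Lengths and GC content came from GENCODE M21 (GRCm38), with trends removed by mgcv 1.9.3, and promoters from RefSeq. Same-numbered libraries did not deviate together (correlations of -0.21 to 0.119 over 5 pairs), and numbers were not used as pairs. Alternatives were pseudocounts of 1 and 0.01, other filters, TPM, robust variance, a replicate block, median-of-ratios scaling, the marrow score, the length and GC trend, and leaving out each library. The other steps used scipy 1.17.1, numpy 2.4.6, matplotlib 3.10.9 and pandas 2.3.3 under Python 3.11.15.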

Additional observations from a re-analysis of the deposited data

Results flagged for a closer look

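The 7 genes and the regulators and partners named with them were searched for a library far from the rest of its genotype, over 48 sets of values. Chance flags about 1 in 20 such sets, and 3 were found. *Sesn2* was 3.33 FPKM in *Atf6*+/+ replicate 1, where the other 4 libraries had 4.5 to 4.86. *Eif4e* was 40.8 FPKM in *Atf6*+/+ replicate 4, against 44.8 to 46.0 in the others. *Atf4* was 149 FPKM in the same library, against 113 to 120 in the others.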

How the results depend on the processing

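No gene of the 7 passed adjustment under any of 21 alternatives. *Sesn1*, *Sesn2*, *Sesn3*, *Ddit4l* and *Eif4ebp2* kept their direction in all of them. The number at an unadjusted limma p of at most 0.05 among the 7, which was 1 as reported beside 9.85% of all genes, was 0 with the marrow score (beside 5.51%) and 2 with the length and GC trend removed (beside 1728 of 15741 genes), the latter chosen after seeing the data. It ran from 0 to 2 when single libraries were left out, being 0 without *Atf6*+/+ replicates 4 or 5 or *Atf6*-/- replicates 4, 5 or 6, and 2 without *Atf6*+/+ replicate 2 or *Atf6*-/- replicate 3, while the share of all genes ran from 7.4% to 11.5%. The exact test's count, 0 as reported beside 9.22% of all genes, was 1 after rescaling to TPM (*Sesn2*, log2 difference 0.17, exact permutation p = 0.0195) beside 10.7%, under which the all-gene median went from -0.0134 to 0.0426, and ran from 0 to 2 without single libraries (1 without replicate 2 of either genotype, 2 without *Atf6*-/- replicate 3), beside 1108 to 1619 of all 16169 genes. *Ddit4* turned to 0.19 and *Eif4ebp1* to 0.0639 with the marrow score, and *Eif4ebp1* to 0.0173 with the trend removed. Without single libraries *Ddit4* ran from -0.17 to 0.0325, *Sesn2*/*Sesn1* from -0.12 to 0.0655 (positive without *Atf6*+/+ replicates 3, 4 or 5 or *Atf6*-/- replicates 2 or 5) and *Ddit4l*/*Ddit4* from -0.22 to 0.0348 (positive without *Atf6*+/+ replicate 4 or *Atf6*-/- replicate 2), on the log2 scale. The mTORC1 and translation lists' count of 4 ran from 1 (without *Atf6*-/- replicates 5 or 6) through 2 (without *Atf6*+/+ replicates 2 or 5) to 7 of 63 (without *Atf6*-/- replicate 3, beside 10.4% of all genes), and the ATF4 targets' count of 15 from 13 to 16. The latter was 12 with the marrow score and 18 after rescaling to TPM (beside 11.3%). The cause of these shifts was not tested. With a replicate block, which drops the unpaired *Atf6*-/- replicate 6, the mTORC1 and translation count was 2, and the count of the 7 stayed at 1 and was *Sesn1* (0.14) in place of *Eif4ebp2* (0.20). With the block, 6.67% of all genes had an unadjusted call. The 95% intervals of the fold were as wide as 0.667 to 1.18 for *Ddit4l* and 0.978 to 1.55 for *Sesn3*.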
